A study of Caenorhabditis elegans with 146 samples.

Results

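The 9 genes described here serve the nucleolus, where ribosomes are made: fib-1, dao-5, ncl-1, nst-1, pro-1, pro-2, pro-3, rpoa-1 and rpoa-2. They were found by their WormBase symbols in the deposited count and TPM tables (TPM is a level corrected for gene length and scaled to the library), and all 9 of 9 are among the 46927 genes counted.

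The nucleolus is the part of the nucleus where RNA polymerase I copies the ribosomal RNA genes. The long pre-rRNA is methylated and pseudouridylated there by small nucleolar RNA-protein particles (snoRNPs), cut, and assembled with ribosomal proteins into the subunits of the ribosome. In the C. elegans gonad, germ cells divide at the distal end, pass through meiotic prophase along the arm and grow into oocytes at the proximal end, and the nucleolus of a maturing oocyte is taken apart before fertilization.

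Each RNA-seq library held one gonad segment, one oocyte or one zygote of a well-fed gravid hermaphrodite of the strain AZ212, which carries a histone H2B::GFP transgene driven by the germline promoter of pie-1, and all worms were immobilized in tetramisole before dissection. Along the gonad the stages were S1 (mitotic region and transition zone), S2 (pachytene), S3 (the diplotene loop), S4 (diakinesis before the -3 oocyte), the -3, -2 and -1 oocytes, and P0, the zygote, with 19, 17, 17, 11, 6, 13, 15 and 6 libraries marked for analysis in the deposited quality table. Segments and oocytes were taken with the sheath cells around them, so a library is not germline alone. Several stages often came from 1 worm, which the labels name. By the paper, libraries were kept by quality limits, and those lying far from others of their type in a UMAP display were removed. The stages below are thus compared in libraries selected in part for likeness to their stage.

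The 104 used libraries held 1273040 to 73449925 counted reads, with a median of 3120026. The quality table places 82 of them in batch A and 22 in batch B. The 5 oocyte markers looked at (oma-1, oma-2, puf-5, pos-1 and rme-2) summed to a median of 239 TPM in S1, 1144 in S2, 4832 in S3, 6517 in S4, and 5591 to 7919 in the oocytes and P0. The distal tip cell markers lag-2 and mig-6 had medians above 0 in S1, and lag-2 a median of 0 in every later stage. The 7 sheath markers had a median sum of 24.6 TPM in S1, 35.1 in S2, 115 in S3, 267 in S4, 412, 817 and 919 in -3, -2 and -1 oocytes, and 2.8 in P0. The sperm markers had median sums of 0 to 0.8 TPM by stage, with up to 211 TPM in a -1 oocyte. The 5 intestine markers had a median sum of 1.0 TPM in -3 oocytes, 18.1 in S1 and 31.6 in P0, with up to 2764 TPM in a -1 oocyte, while the median of elt-2 was 0 in every stage. One P0 library stood apart, the zygote of unknown worm 5. It is the only used library with single-end reads, has 73449925 reads, and is given with and without below. The 2 zygotes of batch B, of unknown worms A and B, are P0 in the labels but of unknown stage in the quality table.

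In the WBcel235 genome, fib-1 lies on chromosome V (15000651 to 15002223, minus strand), 109 bases from rps-16 on the same strand. The gene dao-5 (chromosome I, 10187546 to 10190896, minus strand) overlaps rsa-1 on the other strand and is 376 bases from lid-1. On chromosome III, ncl-1 (7719729 to 7738105, plus strand) overlaps 3 genes of the other strand. The genes nst-1, pro-1, pro-2 and rpoa-1 are on chromosome II without antisense overlap, at 8281162 to 8283208, 10539438 to 10541996, 10339727 to 10345112 and 13670626 to 13694795, all on the minus strand, and pro-1 is 105 bases from R166.3. The gene pro-3 (V, 19101347 to 19118412, minus strand) overlaps zhp-4 on its own strand, and rpoa-2 (I, 9280923 to 9286576, minus strand) overlaps no other gene. Of the uniquely mapped reads, 66.7% to 97.7% were counted on genes, so counting was not limited to 1 strand. Reads in the shared stretches of dao-5 with rsa-1 and of pro-3 with zhp-4 may therefore be lost or misassigned.

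Levels per length differed widely between the genes in S1. The median was 1547 TPM for fib-1, 168 for dao-5, 133 for nst-1, 43.2 for pro-2, 32.02 for rpoa-1, 25.03 for rpoa-2, 23.98 for pro-1, 6.9 for ncl-1 and 1.8 for pro-3. In S4 fib-1 was still far above the others at 448 TPM, and ncl-1, at 28.99 TPM, was above rpoa-2 (27.2), pro-1 (19.2) and rpoa-1 (16.3). When one model was fitted to all 8 stages with edgeR, the level differed among stages for 7 of the 9 genes at an adjusted p under 0.05, against 72.2% of the 9093 genes tested. The adjusted p was 3.23e-10 for fib-1, 4.5e-08 for dao-5, 5.45e-08 for nst-1, 0.00146 for rpoa-1, 0.00677 for rpoa-2, 0.0101 for ncl-1 and 0.0123 for pro-2. It was 0.111 for pro-1 and 0.259 for pro-3. In batch A alone, ncl-1 was not called (adjusted p = 0.781) and pro-1 was (adjusted p = 0.0386).

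**Figure D1:**
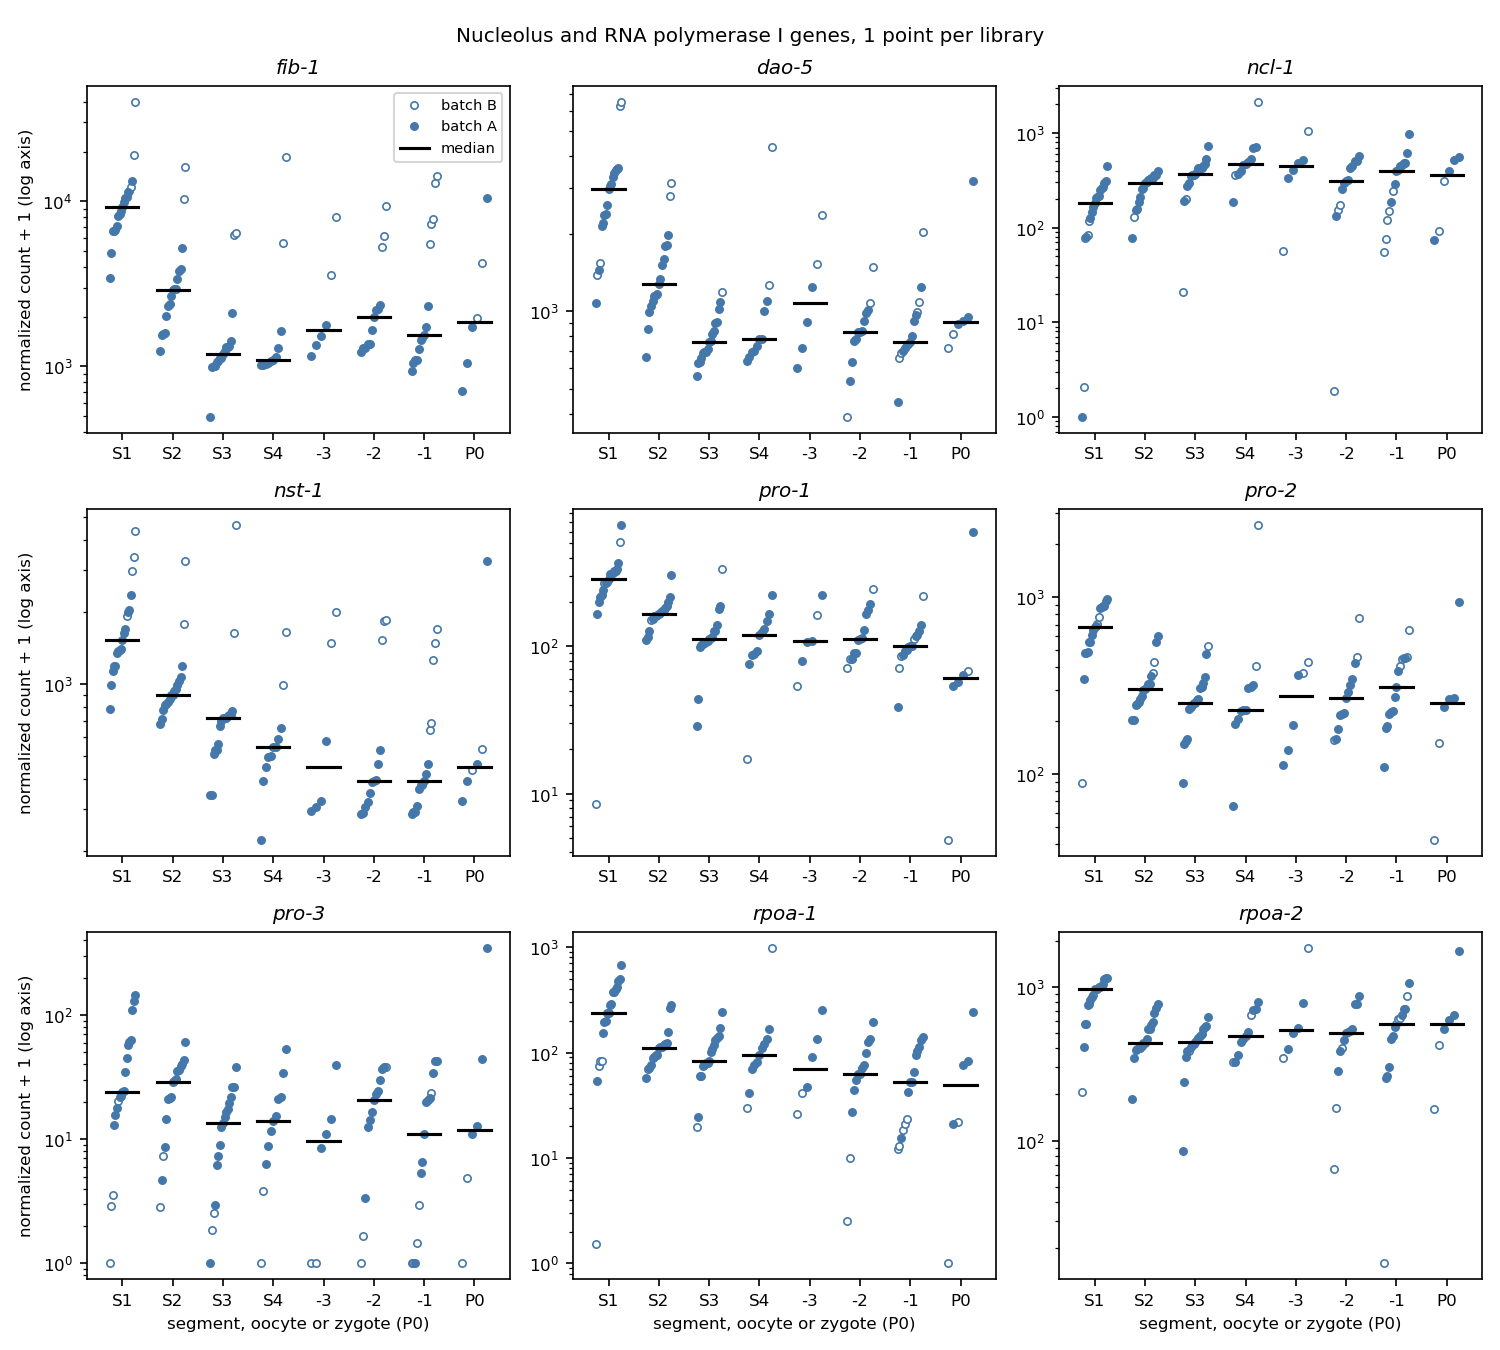
Normalized count plus 1 of each of the 9 genes (vertical log axes, ranges differ by panel) in every used library, by stage along the gonad (horizontal axes). Filled points are batch A, open points batch B, and bars are stage medians. The median normalized count is highest in S1 for 7 genes and in S2 for pro-3, and ncl-1 has its lowest median in S1. In TPM, which is not drawn, the median of rpoa-2 is highest in P0. For fib-1 and nst-1 the batch B median is above the batch A median in each of the 8 stages.

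The most abundant of the 9, fib-1, encodes fibrillarin, the methyltransferase of the box C/D snoRNPs that modify pre-rRNA. Its normalized counts (counts divided by the library's size factor) had a lowest, median and highest value of 3430, 9251 and 40032 in S1, 1239.5, 2884 and 16137 in S2, 494, 1193 and 6453 in S3, and 1019.7, 1088 and 18626 in S4. In -3, -2 and -1 oocytes and P0 the medians were 1652, 1999.8, 1550.2 and 1845, with single libraries from 713 to 14182. On the TPM scale the mean was 1406 ± 424 in S1 (SD, n = 19), the stage with the highest median. It was above the mean of -2 oocytes, the next stage by median, by more than the larger SD (629 against 424). Stages further down the order were not compared with S1 in this way, and the SD reached 1253 in P0. The step from S1 to -2 was the 1 such step among 63 neighboring pairs in the orders of the 9 genes by stage median, and the ranges overlapped in every pair. Batch mattered for this gene: the median was 15612 in batch B and 8373 in batch A in S1, and 13210 in batch B and 2672 in batch A in S2.

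Within batch A, fib-1 was separated more cleanly. There, 12 of 15 S2 libraries lay below the lowest S1 library, and 9 of 15 S3 libraries below the lowest S2 library. In batch B, both S3 libraries were below both S2 libraries, whereas 1 of 2 S2 libraries was below the lowest of the 4 S1 libraries.

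The gene dao-5 encodes a nucleolar phosphoprotein of the Nopp140 kind, associated with rRNA gene transcription. Its normalized counts were 1072, 2982 and 6510 (lowest, median, highest) in S1, 663, 1271 and 3148 in S2, 557, 759 and 1187 in S3, and 638, 778 and 4333 in S4. The oocytes and P0 stayed in the same range as S3 and S4, with medians of 1073, 831, 759.8 and 904. All 17 S3 libraries were below the S2 median, and 9 of the 17 S2 libraries were above the highest S3 library. In TPM, by contrast, the median of dao-5 in P0 (162) was close to that in S1 (168). TPM is a share of the library, and cytoplasmic ribosomal protein genes summed to a median of 433182 TPM in S1 and 32665 in P0. Their part in the TPM values of the 9 genes was not tested.

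Polymerase I is represented by rpoa-1, its largest subunit, and rpoa-2, the other large subunit, which together form the active center. For rpoa-1, normalized counts were 0.5, 236 and 677 in S1, 55.8, 109 and 280.04 in S2, and 18.5, 82.2 and 240.1 in S3, and the stage median was lower still in -1 oocytes (51.7) and P0 (47.9). For rpoa-2 they were 208, 964 and 1153 in S1, 186, 434 and 776 in S2, and 84.8, 439.7 and 634 in S3, and medians were 482 to 571 from S4 to P0. All 17 S2 libraries had less rpoa-2 than the S1 median, and 13 of 19 S1 libraries exceeded the highest S2 library. The 2 subunits thus shared the first step and differed after it in their medians, with rpoa-1 lower in -1 oocytes than in S2 and rpoa-2 higher.

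The remaining 5 genes include 4 that act in making the large ribosomal subunit. The nucleolar GTPase nst-1, the worm nucleostemin, had normalized counts of 785, 1524 and 4370.3 in S1, 677, 901 and 3278 in S2, 343, 717 and 4616 in S3, and 222, 542 and 1649 in S4. Its medians were 450.1 in -3, 391 in -2 and 391 in -1 oocytes, and 449.7 in P0. In batch A, 13 of 15 S2 libraries lay above the highest S3 library for this gene.

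The genes pro-1, pro-2 and pro-3 were named for proximal germ cell proliferation in mutants and resemble yeast proteins of the large subunit pathway (Ipi3, Noc2 and Sda1). For pro-1, normalized counts were 7.5, 285 and 664 in S1, 109, 164 and 302 in S2, and 27.6, 112 and 334 in S3, with medians of 59.5 to 119 afterwards. For pro-2 they were 87.2, 679 and 976 in S1, 199, 301 and 601 in S2, and 87.5, 251 and 526 in S3, with medians of 229 to 310.2 afterwards. In TPM the median of pro-2 in P0 (41.4) was close to that in S1 (43.2). In contrast to pro-1 and pro-2, pro-3 was barely detected, at median normalized counts of 8.7 to 27.99 in the 8 stages, and batch B held almost none of it (stage medians of 0 to 4.05 normalized counts in batch B and of 11.7 to 33.98 in batch A).

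The last gene, ncl-1, encodes a B-box and NHL repeat protein that limits nucleolar size and fibrillarin in the worm, so it acts against the growth of the organelle. Its medians ran the other way along the arm, and in batch A alone its level did not pass the test over the 8 stages. Normalized counts were 0, 179 and 446 (lowest, median, highest) in S1, 76.4, 291 and 391 in S2, 19.96, 365 and 724 in S3, and 186, 471 and 2130.4 in S4. In TPM the medians were 6.9 in S1, 10.7 in S2, 21.5 in S3, 28.99 in S4, 24.8, 16.5 and 18.4 in the -3, -2 and -1 oocytes, and 18.4 in P0. Neighbors in this order did not differ beyond their SD (S4 29.2 ± 14.1, n = 11, and S1 5.9 ± 3.9, n = 19, at the ends).

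The comparison of neighboring stages asked at which step along the arm each gene changed. A gene was called at an adjusted p under 0.05 over all genes tested and a fold change above 1.5, with edgeR's quasi-likelihood test, and each log2 fold change is the later stage over the earlier one. Fewer germ cells of a kind and less RNA per cell cannot be told apart in such segments, and all values are shares of a library, not amounts per nucleus.

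Between the mitotic region and pachytene (S1 vs. S2), 7 of the 9 genes fell and none rose, where 7.69% of the 5253 genes tested fell, 6.93% rose and 14.6% changed in either direction. The median log2 fold change of the 9 was -0.82, against -0.04 over all genes tested. The largest fall was that of fib-1, by 1.49 ± 0.20 on the log2 scale (SE; adjusted p = 2.36e-06), which is 2.82-fold lower. Both polymerase I subunits fell, rpoa-1 by 1.04 ± 0.32 (adjusted p = 0.0216) and rpoa-2 by 0.82 ± 0.18 (adjusted p = 0.000931). The assembly genes pro-2, pro-1 and nst-1 fell by 0.98 ± 0.20, 0.72 ± 0.25 and 0.60 ± 0.13, and dao-5 fell by 0.88 ± 0.18 (adjusted p = 0.000729). The 2 genes that were not called were pro-3 (-0.59, 95% interval -1.46 to 0.27) and ncl-1 (0.37, -0.31 to 1.06). Over the 14 alternatives the call held in 14 for fib-1, 13 for dao-5 and pro-2, 11 for rpoa-1, 10 for rpoa-2, 7 for pro-1 and 6 for nst-1, whose fold of 1.52 is close to the limit of 1.5, and the 14 values were below 0 for each of the 7. The distal tip cell markers were also lower in S2 (median sums of 0 TPM in S2 and 2.8 TPM in S1), and their part in these falls was not tested.

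**Figure D2:**
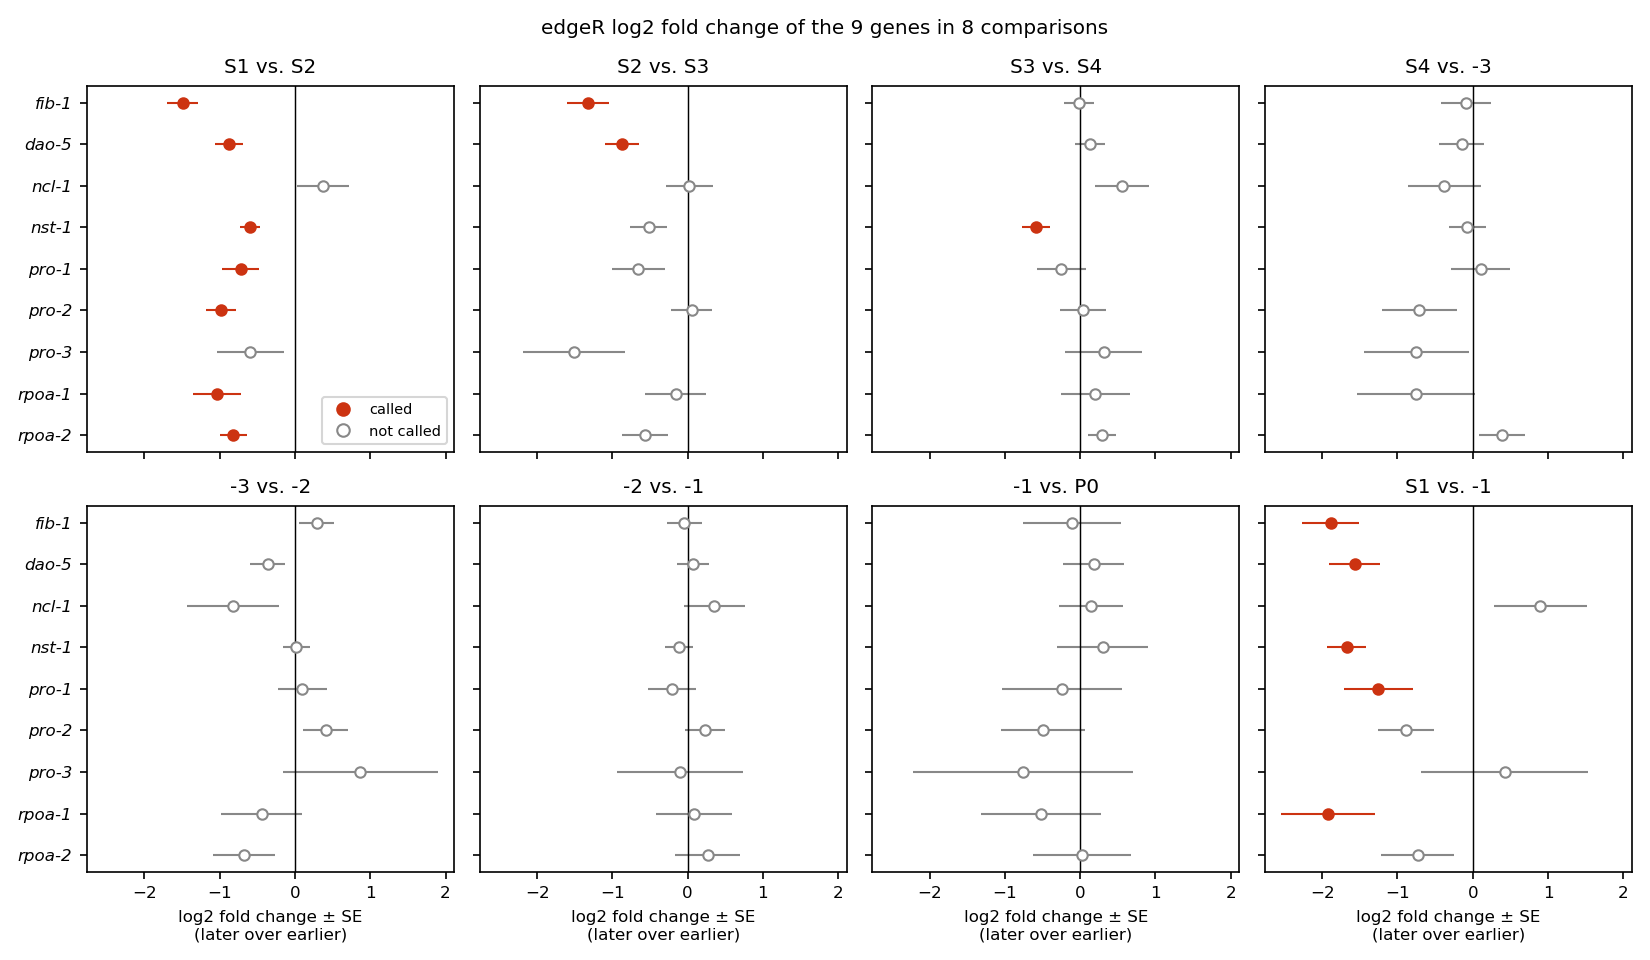
log2 fold change ± SE from edgeR (horizontal axes, later stage over earlier) of the 9 genes in 8 stage comparisons. Filled red points were called at an adjusted p under 0.05 and a fold above 1.5: S1 vs. S2 has 7 of them, S2 vs. S3 has 2, S3 vs. S4 has 1, the 4 later steps have none and S1 vs. -1 has 5, all to the left of 0.

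Between pachytene and the diplotene loop (S2 vs. S3), 2 of the 9 genes were called and both fell, where 4.76% of the 6218 genes tested fell, 15.8% rose and 20.6% changed in either direction. Again fib-1 had the larger fall, by 1.33 ± 0.28 (adjusted p = 0.000474), and dao-5 fell by 0.87 ± 0.23 (adjusted p = 0.00455). The median of the 9 was -0.57, against 0.04 over all genes tested. All 3 intestine markers tested, 4 of 5 oocyte markers and 2 of 3 distal germ cell markers were higher in S3 at this step, although the median intestine sum was 7.3 TPM in S3 and 15.2 TPM in S2, and their part in these falls was not tested. Values for the genes not called ran from -1.50 (pro-3, SE 0.68) to 0.05 (pro-2, SE 0.27). The share of genes detected, a covariate of the fit, differed between S2 and S3 libraries (r = 0.76 with stage), and in the fit with worm as a replicate block only fib-1 was called (adjusted p = 0.0314), with dao-5 at -0.74 ± 0.30 (adjusted p = 0.184) and 33 of 6128 genes called in all. Without the batch covariate neither was called (fib-1 -0.08 ± 0.53, dao-5 -0.67 ± 0.29), and in batch A alone nst-1 and pro-1 were called as well.

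Worms that gave both segments allow a comparison within the animal, made here for the 9 genes alone and without covariates. How many of all genes went the same way in every worm was not counted. Of 11 worms with S1 and S2, all 11 had less fib-1, dao-5, nst-1 and pro-1 in S2 than in S1. The mean log2 difference (S2 minus S1, of normalized count plus 1) was -1.64 ± 0.57 for fib-1, -1.17 ± 0.57 for dao-5, -0.67 ± 0.30 for nst-1 and -0.90 ± 0.36 for pro-1 (SD, n = 11; exact two-sided sign-flip permutation test, p = 0.000977 each, the smallest that 11 worms can give, and adjusted p = 0.00439 over 18 tests). In S2, pro-2 and rpoa-2 were lower in 10 of 11 worms (exact permutation p = 0.00195 each, adjusted p = 0.00586), rpoa-1 in 9 (exact permutation p = 0.00391, adjusted p = 0.00781) and pro-3 in 8 (exact permutation p = 0.178, adjusted p = 0.213). By contrast, ncl-1 was higher in 9 of 11 worms (mean 0.41 ± 0.84, exact permutation p = 0.132, adjusted p = 0.17).

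Of 9 worms with S2 and S3, all 9 had less fib-1 in S3 than in S2 (mean -1.32 ± 0.43, n = 9) and all 9 less dao-5 (mean -0.79 ± 0.34), at an exact permutation p = 0.00391 each, the smallest that 9 worms can give (adjusted p = 0.00781). Next, nst-1 and pro-2 were lower in 8 of 9 worms (means of -0.40 ± 0.32 and -0.43 ± 0.32, exact permutation p = 0.0117 and 0.00781, adjusted p = 0.0176 and 0.0128). Here ncl-1 was higher in S3 in 8 of 9 worms, by a mean of 0.65 ± 0.74 (exact permutation p = 0.00781, adjusted p = 0.0128). The model with the detection share as a covariate gave 0.02 ± 0.31 for ncl-1 in S2 vs. S3, and 0.34 ± 0.20 without that covariate. With worm as a replicate block the sign depended on the covariate. There ncl-1 was at -0.58 ± 0.39 with it and at 0.53 ± 0.22 without it, and was not called in either fit. In S3, pro-3 was lower in 8 of 9 worms, pro-1 in 6, and rpoa-1 and rpoa-2 in 5 each, and none of these 4 passed (exact permutation test, adjusted p from 0.0811 to 0.582).

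**Figure D3:**
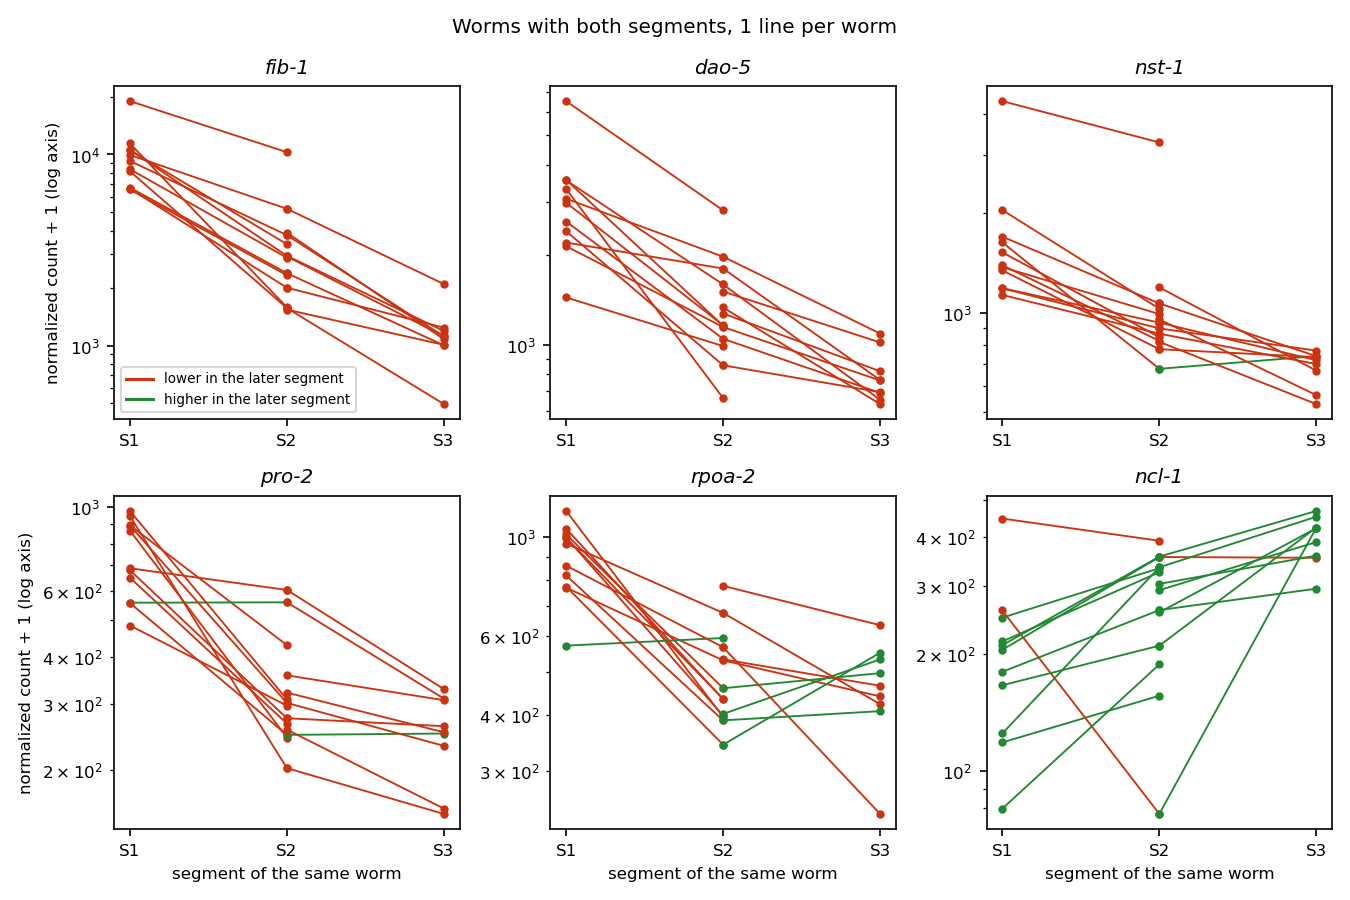
Normalized count plus 1 (log axes) of 6 of the genes in S1, S2 and S3, with a line between the segments of 1 worm, red where the later segment was lower and green where it was higher. All 11 lines of fib-1, dao-5 and nst-1 between S1 and S2 are red, and 9 of 11 of ncl-1 are green.

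From the diplotene loop on, few of the 9 were called. In S3 vs. S4 the 1 call was nst-1 (log2 fold change -0.59 ± 0.18, adjusted p = 0.0436), where 3.96% of the 7071 genes tested fell, 3.69% rose and 7.65% changed (261 higher and 280 lower, and 280 higher and 164 lower with median-of-ratios factors). That call held in 1 of 14 alternatives (adjusted p from 0.0436 to 1), although the 14 values were below 0. On log2(TPM + 1) limma called ncl-1 and rpoa-2 higher in S4 instead, where it called 1562 of 7959 genes higher and the median was 0.36 for the 9 genes and 0.32 over all genes. With a pseudocount of 0.1, or without the filter, it called ncl-1 but not rpoa-2. The other 8 genes had log2 fold changes of -0.25 to 0.56, the highest being that of ncl-1 (SE 0.36, adjusted p = 0.363). None of the 9 was called in S4 vs. -3, where 1.39% of 7135 genes changed (1.3% down and 0.0841% up), in -3 vs. -2, where 0% of 7206 genes did, or in -2 vs. -1, where 0.158% of 6958 genes did. Over all genes in -3 vs. -2, 141 had an unadjusted p under 0.05 in edgeR, DESeq2 called 94 and limma 0. In each of these 3 comparisons 0 of the 9 had an unadjusted p under 0.05 in the reported edgeR fit, and DESeq2 and limma called 0 as well. For fib-1 the 95% intervals of the 3 steps were -0.75 to 0.56, -0.17 to 0.74 and -0.50 to 0.41, so falls of the size seen in S1 vs. S2 lie outside them. For pro-3 and rpoa-1 the intervals were wide (-2.11 to 0.61 and -2.29 to 0.78 in S4 vs. -3), and hold falls and rises of more than 1.5-fold. In batch A alone rpoa-1 was at 0.37 ± 0.43 in this step and pro-3 at -0.40 ± 0.67, against SEs of 0.78 and 0.69 with both batches. Sheath markers rose through these same stages (median sums of 919 TPM in -1 oocytes and 267 TPM in S4), and their part in the values of the 9 genes was not tested.

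At fertilization (-1 vs. P0), none of the 9 genes was called, where 5.97% of the 7555 genes tested changed, 5.78% down and 0.185% up. None had an unadjusted p under 0.05 in the reported edgeR fit, and DESeq2 and limma called 0. The share of genes detected was tied to the stage here too (r = -0.47). Without it as a covariate fib-1 was at 0.88 ± 0.52 and pro-3 at 1.88 ± 1.09, in place of -0.11 ± 0.66 and -0.76 ± 1.46. In that fit pro-1, pro-2 and rpoa-1 also changed sign, to values above 0. There nst-1 was at 1.19 ± 0.48 (adjusted p = 0.14), and none of the 9 was called. The 6 zygotes had fib-1 at 713, 1051, 1724, 1966, 4200.3 and 10445 normalized counts, against a lowest, median and highest value of 942, 1550.2 and 14182 in -1 oocytes. In batch B, both zygotes, whose stage the quality table leaves unknown, were below all 5 -1 oocytes for fib-1, nst-1, pro-1 and pro-2 (log2 ratios of the medians of -1.33, -1.38, -1.61 and -2.25). How many of all genes were split in this way by these 2 zygotes was not counted. In batch A alone, without these 2, fib-1 was at 0.82 ± 0.67, nst-1 at 1.27 ± 0.63, and none of the 9 was called. The zygote of unknown worm 5 was the highest of the 6 for 8 of the 9 genes and the lowest for ncl-1. It had 3256 nst-1 against 323 to 534 in the other 5 zygotes, 3189.7 dao-5 against 720.0 to 948, 598 pro-1 against 3.8 to 67.1, and 345 pro-3 against 0 to 43.3. For ncl-1 it had 72.7 against 91.2 to 558 in the others. Without it, fib-1 was at -0.79 ± 0.37 (adjusted p = 0.256) in place of -0.11 ± 0.66, pro-1 at -1.05 ± 0.53 (adjusted p = 0.323) in place of -0.24 ± 0.80, and nst-1 at -0.36 ± 0.32 in place of 0.30 ± 0.61. None of the 9 genes was called then either. In batch A alone and also without the zygote of unknown worm 5, an alternative chosen after seeing the data, fib-1 was at -0.21 ± 0.31 and nst-1 at 0.26 ± 0.25, and none was called.

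The ends of the oocyte line were set against each other in S1 vs. -1. Here 5 of the 9 genes fell and none rose, where 15.3% of the 6139 genes tested fell, 21.6% rose and 36.9% changed. The median of the 9 was -1.26, against 0.15 over all genes tested, and median-of-ratios factors moved the median of all genes to 0.31. The log2 fold change was -1.89 ± 0.38 for fib-1 (adjusted p = 0.000133, 3.71-fold lower), -1.92 ± 0.62 for rpoa-1 (adjusted p = 0.0136), -1.67 ± 0.26 for nst-1 (adjusted p = 2.9e-06), -1.57 ± 0.34 for dao-5 (adjusted p = 0.000312) and -1.26 ± 0.46 for pro-1 (adjusted p = 0.0287). Over the 14 alternatives the call held in 11 for nst-1, 10 for rpoa-1 and dao-5, 9 for fib-1 and 6 for pro-1, which lost it with DESeq2 and with median-of-ratios factors and was at 0.50 with all mapped libraries. With limma on log2(TPM + 1), only nst-1 of the 9 was called. In batch A, none of the 10 -1 oocytes reached the lowest of the 15 S1 libraries for fib-1, nst-1 or pro-1. The share of all genes separated in this way was not counted. The values of ncl-1 were higher in -1 oocytes than the highest S1 library in 6 of 15 libraries, with a log2 fold change of 0.90 ± 0.62 (adjusted p = 0.268). The share of genes detected was again tied to the stage (r = 0.80). Without it as a covariate 8 genes were called, 7 lower and ncl-1 higher (1.00 ± 0.36, adjusted p = 0.0159), where 3635 of 6139 genes were called, 2130 of them higher. Without the batch covariate 3 were called, and fib-1 was at -0.33 ± 0.58. With worm as a replicate block (7 worms), 0 of 9 were called when the detection covariate was kept (3 of 5844 genes in all) and 7 when it was not (2911 of 5844), with fib-1 at -0.75 ± 1.37 and at -2.43 ± 0.38. In the same fits ncl-1 changed sign, at -6.27 ± 2.53 with the covariate and at 1.30 ± 0.76 without it.

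The wider machinery of the nucleolus moved at the same steps. Of 7 snoRNP protein genes tested, all 7 fell between S1 and S2 and 5 between S2 and S3, with median log2 fold changes of -1.27 and -0.99. The largest falls were those of nol-58, a core protein of box C/D snoRNPs, at the first step (-1.55 ± 0.22) and of nol-56, its partner, at the next (-1.86 ± 0.34). Of the 7 RNA polymerase I genes, 6 and 2 fell at these steps (medians -0.88 and -0.57), led both times by tif-1A, the polymerase I initiation factor (-1.07 ± 0.19 and -1.28 ± 0.22, although at the second step its median normalized count was 422 in S3 and 477 in S2). Of 39 pre-rRNA processing and assembly genes tested, 29 fell at the first step, 8 at the next and 2 in S3 vs. S4, with medians of -0.84, -0.47 and -0.19. The largest falls there were those of nsun-1, an rRNA methyltransferase (-1.57 ± 0.22), of the helicase gene ddx-10 (-1.70 ± 0.58, although its median normalized count was 172 in S3 and 170.3 in S2) and of grwd-1 (-0.73 ± 0.19). All of the 9 genes but ncl-1 are part of these lists. Without them, 4 of 5 RNA polymerase I genes, 6 of 6 snoRNP genes and 25 of 34 processing genes fell between S1 and S2. Between S2 and S3 it was 2 of 5, 4 of 6 and 7 of 34, and in S3 vs. S4 1 of 34 processing genes. Over all genes tested, 7.69%, 4.76% and 3.96% fell at these 3 steps.

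Other polymerases and regulators give a scale for this. Of the 7 RNA polymerase II core genes, 1 fell between S1 and S2 (rpb-7, -0.97 ± 0.27), and the medians of that list were -0.35 there and -0.05 between S2 and S3. Of 4 RNA polymerase III genes, 3 fell between S1 and S2, led by rpc-25 (-0.96 ± 0.25). In the list of growth regulators that holds ncl-1, mml-1, a Myc and Mondo-like transcription factor, rose between S2 and S3 (2.87 ± 0.83, adjusted p = 0.0102) and between S3 and S4 (1.27 ± 0.36, adjusted p = 0.0278), with median normalized counts of 0.9 in S2, 55.6 in S3 and 166 in S4. In -1 vs. P0, 2 of 7 polymerase II genes rose, led by rpb-9 (1.27 ± 0.31, adjusted p = 0.0145), although its median normalized count was 337 in P0 and 281 in -1 oocytes.

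Cytoplasmic ribosomal protein genes, whose products the nucleolus assembles, had another timing. Of 79 tested, 1 fell between S1 and S2, 51 fell and 2 rose between S2 and S3, 70 fell between S3 and S4 (rpl-43, -1.84 ± 0.35) and 68 between S4 and -3 (rpl-22, -2.80 ± 0.53). Their medians at these 4 steps were -0.40, -0.83, -1.34 and -2.31, while those of the snoRNP list were -1.27, -0.99, 0.07 and -0.25. The neighbor of fib-1 on its strand, the ribosomal protein gene rps-16, shows the contrast at 1 place in the genome. Its median normalized counts were 13803 in S1, 8759 in S2, 3701 in S3, 1308 in S4 and 272 in -3 oocytes. In S4 vs. -3, the log2 fold change was -2.65 for rps-16 (adjusted p = 0.0109) and -0.10 ± 0.33 for fib-1. In S1 vs. S2 it was -0.53 for rps-16 (adjusted p = 0.0241) and -1.49 for fib-1. The differences between these lists and between the 2 genes were not tested.

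**Figure D4:**
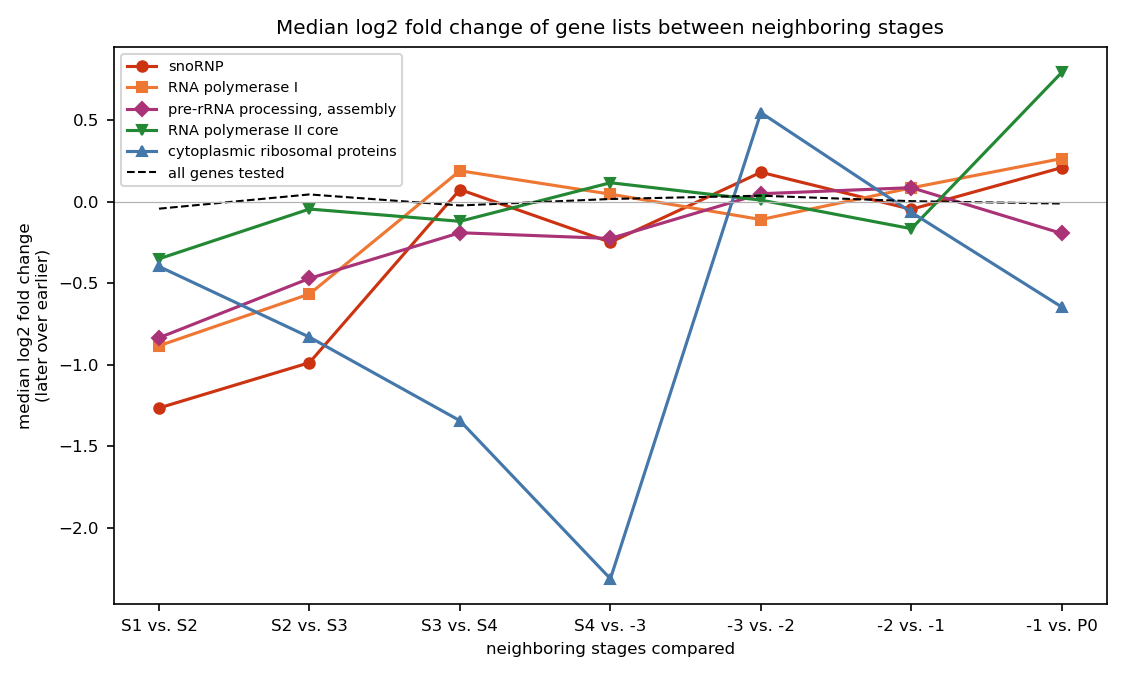
Median log2 fold change (vertical axis, later stage over earlier) of 5 gene lists and of all genes tested (dashed) at the 7 steps between neighboring stages (horizontal axis). The snoRNP, polymerase I and processing lists are lowest in S1 vs. S2 (-1.27, -0.88 and -0.84), and the ribosomal protein list is lowest in S4 vs. -3 (-2.31).

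Near neighbors were looked at for the other genes as well. R166.3, on the strand of pro-1, was at -0.69 in S1 vs. S2 and -0.89 in S2 vs. S3, beside -0.72 and -0.65 for pro-1, with neither value of R166.3 called (adjusted p = 0.188 and 0.225). The antisense partner of dao-5, rsa-1, had medians of 3564 in -1 oocytes and 855 in S1 and rose in S1 vs. -1 (1.65 on the log2 scale). The next gene on the strand of dao-5, lid-1, was at 0.76 in S1 vs. S2 (adjusted p = 0.0916). Over the 82 batch A libraries, the correlation of log2 normalized counts was -0.64 between dao-5 and rsa-1, -0.63 between dao-5 and lid-1, 0.55 between fib-1 and rps-16, and -0.31 between pro-3 and zhp-4. These are descriptions over libraries that share worms, stages and depth.

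The 9 genes were also set beside 5538 genes of sufficient level (mean normalized count 50 or more) over the same 82 libraries. Those with a profile most like that of fib-1 were nol-56 (r = 0.95), Y48A6B.3 (0.94) and garr-1 (0.91), all genes of snoRNP proteins. For dao-5 they were nol-58 (0.93), nol-56 (0.92) and nucl-1 (0.90), the gene of nucleolin. For nst-1 they were C24H12.4 (0.91), ngp-1 (0.90) and lpd-7 (0.90), and for pro-2 dkc-1 (0.84), utp-20 (0.84) and gldi-1 (0.82). For pro-1 they were C27F2.4 (0.78), Y94H6A.5 (0.76) and nol-58 (0.74). The best matches of rpoa-1 were Y48B6A.1 (0.81), Y45F10D.7 (0.81) and fbf-1 (0.80), those of rpoa-2 F55F8.3 (0.75), let-716 (0.73) and F13H8.2 (0.71), and those of pro-3 F23B12.7 (0.78), F54C9.9 (0.70) and rbd-1 (0.70). The mean profile of the 9 was most like Y54E10A.10 (0.89), nol-58 (0.88) and dkc-1 (0.88). The genes most like ncl-1 were of another kind, lst-6 (0.89), ikke-1 (0.87) and let-607 (0.87).

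Among themselves, 28 of the 36 pairs of the 9 genes were positively correlated over these libraries, and the 8 negative ones were the 8 pairs with ncl-1. The closest pair was fib-1 and dao-5 (r = 0.89) and the most opposed fib-1 and ncl-1 (-0.53). With the stage means taken out, the same 28 pairs stayed above 0 (median r = 0.43 over all 36 pairs, against 0.57 with them in), fib-1 and dao-5 were at 0.61 and fib-1 and ncl-1 at -0.27. Depth and the share of genes detected were not taken out. The share of positive pairs among all genes was not counted.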

How the data were processed

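RNA of single gonad segments, oocytes and zygotes was sequenced with single-cell RNA-seq methods, and the deposited table of counts gives reads per gene that the authors trimmed with Trim Galore, aligned with HISAT2 to WBcel235 (WormBase WS291) and counted with HTSeq. The deposited TPM values were estimated by the authors with Salmon. A quality table deposited with them holds, per library, shares of mapped reads (as a fraction), batch, read type and whether the authors used it. The table has 92 spike-in rows, which were left out, as were 797 genes (741 that follow major sperm protein genes at r above 0.99, 36 of mitochondrial DNA and 20 of rRNA).

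The counts of 2 stages were fitted with edgeR 4.0.16 in R 4.3.3 (TMM factors, a minimum count of 10, robust quasi-likelihood F test, Benjamini-Hochberg adjustment over all genes tested), each fit adjusted for batch and for the fraction of genes with a read. A call needed an adjusted p under 0.05 and a fold above 1.5. SEs were derived from the log2 fold change and its F statistic. For plots and levels, counts were scaled by median-of-ratios factors from 3638 genes, with a pseudocount of 1 on the log scale. The samples of a stage carry different worm names. Some zygotes are of unknown worms, so that all zygotes came from separate animals was assumed. Alternatives were DESeq2 1.42.0, limma 3.58.1 on log2(TPM + 1) or log2(TPM + 0.1), other factors, filters, covariates and libraries, and worm as a block.

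Worms are named in the labels, so segments of 1 worm are paired by animal. Stage, batch and the share of genes detected were fitted to the log2 levels, and the deviations from that fit were correlated between libraries of the 2 stages. The mean r was 0.18 for the same worm and -0.02 for other worms of the same batch in S1 vs. S2 (11 pairs), and 0.19 and -0.03 in S2 vs. S3 (9 pairs). It was 0.00 for the same worm in S1 vs. -1 (7 pairs).

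The genes and lists were chosen with earlier results of these data known. Beyond the 9 genes, the text names the called gene with the largest fall or rise of each list, the 3 genes most correlated with each of the 9 in batch A, and near neighbors. Of 47 processing genes listed 40 were found by symbol, and of 9 snoRNP genes 8. Scripts were tested on simulated data. No reference sequence was used here.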

Additional observations from a re-analysis of the deposited data

Results flagged for a closer look

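Libraries were compared in 18 groups of 6 (the 9 genes in -3 oocytes and in P0), and each group mixed batches A and B. Chance gives about 1 in 20 groups with a library far from the others where libraries are alike, a rate that mixed batches need not keep. In 11 of the 18 groups, the highest library lay far from the next one for the size of the group. In P0 that library was the zygote of unknown worm 5 for 8 of the genes, so these are not separate events. It had 10445 normalized counts of fib-1, against 4200.3 in the next zygote, 3189.7 of dao-5 (next 948), 3256 of nst-1 (next 534), 598 of pro-1 (next 67.1), 937 of pro-2 (next 267), 345 of pro-3 (next 43.3), 241 of rpoa-1 (next 82.3) and 1726 of rpoa-2 (next 653). Among -3 oocytes, that of worm H had 7984 fib-1 (next 3591) and 1790.3 rpoa-2 (next 781), and that of worm 20 had 38.9 pro-3 (next 13.5). Leaving out any 1 of the -3 or P0 libraries left the number of the 9 genes called at 0 in each comparison that -3 or P0 enters.

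Early embryo libraries, which no comparison used, also held these transcripts. In 9 such libraries, all single-end and none marked for analysis, fib-1 had a median of 1980.5 TPM (612 to 3978) and nst-1 a median of 438 TPM (60.6 to 842). The zygote of unknown worm 5, the single-end library among the used ones, had 3487 TPM of fib-1 and 566 TPM of nst-1. Read type and stage cannot be told apart in the embryo libraries.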

How the results depend on the processing

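Of 1159 recomputed fold changes, 1076 kept their call, 65 lost it, 17 gained one and 1 called value changed sign, pro-1 in S1 vs. -1, at 0.50 with all mapped libraries and -1.26 as reported. Another 169 values changed sign without a call. The number called over all genes changed with the alternative too, and is given here only for some. In S1 vs. S2, 7 of the 9 genes were called as reported (768 of 5253 genes in all). There 4 were called with all 8 stages in 1 fit (1696 of 9093 in all) and 3 with all mapped libraries (366 of 5209 in all). With limma it was 4, 3 and 2 on log2(TPM + 1), on log2(TPM + 0.1) and without its filter. In S2 vs. S3 (2 called), it was 0 without the batch covariate, 4 in batch A alone, 1 with worm as a replicate block and 1 with limma on log2(TPM + 1), with or without its filter. In S3 vs. S4 (1 called), it was 2 with limma on log2(TPM + 1), and 0 with DESeq2, median-of-ratios factors, no detection covariate, no batch covariate, no count filter, all 8 stages, all mapped libraries, batch A alone and both replicate blocks. In -1 vs. P0 (0 called), 1 was called with all 8 stages (nst-1, 1.06). In S1 vs. -1 (5 called), it was 8 without the detection covariate, 3 without the batch covariate, 0 with the replicate block, 1 and 1 with limma at either pseudocount and 0 without its filter. In the test over 8 stages, ncl-1 was not called in batch A alone (adjusted p = 0.781), and calls were gained by pro-1 in batch A alone (adjusted p = 0.0386) and, without the detection covariate, by pro-1 and pro-3 (adjusted p = 2.75e-06 and 0.00463). The causes were not tested. With 1 library left out at a time, the number called ranged from 0 to 0 where -3 or P0 was compared.

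With worm as a replicate block, S1 vs. S2 had 7 calls with and 7 without the detection covariate, and S2 vs. S3 and S1 vs. -1 had 2 and 7 without it. The block changed no call in S4 vs. -3, -3 vs. -2 and -2 vs. -1 (0 each). No paired analysis was possible in -1 vs. P0, because no worm named in the labels gave both used libraries.

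The gene pro-3 is at 0 in 10 of the 104 libraries and lower in batch B, whose libraries are deeper (median of 14681432 reads in batch B and 2859936 in batch A). The 6 libraries each of -3 and P0 leave wide intervals.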

Other observations

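The 7 other genes in the 9 early embryo libraries were spread widely. The lowest, median and highest TPM were 27.4, 104 and 380.2 for dao-5, 0, 0.3 and 46.6 for ncl-1, 0, 1.5 and 39.0 for pro-1, 0.04, 66.0 and 157 for pro-2, 0, 0.01 and 124 for pro-3, 0.03, 5.7 and 25.6 for rpoa-1, and 0.06, 30.9 and 84.1 for rpoa-2. These libraries held 5561788 to 22088257 counted reads, and 17.2% to 85.6% of their reads mapped uniquely. In 1 library of S2 and S3 together, fib-1 was at 673 TPM and ncl-1 at 49.9 TPM, and in 1 of S4 with the -3 and -2 oocytes, fib-1 was at 328 TPM and ncl-1 at 7.1 TPM.

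The 3 germline regulators listed as distal markers (sygl-1, lst-1 and glp-1) did not peak in S1, where fib-1 did. Their summed level had a median of 193 TPM in S1, 139 in S2 and 726 in S3.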
